A study of Arabidopsis thaliana with 18 samples.

Results

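The genes described here are those with a raised signal after induction of SND1 and a lower one after induction of VND6, in suspension-cultured cells of Arabidopsis thaliana. They were chosen on group means of the linear signal of the Affymetrix ATH1 array, with means under 20 set to 20. A probe set entered if its mean in SND1 cells at 12 h was at least 100, at least 3 times that of SND1 cells at 0 h, at least 3 times that of wild-type (wt) cells at 12 h and over 3 times that of VND6 cells at 12 h. The rule was met by 77 of the 22810 probe sets, and 5 of these were left out by name (IRX15, AT1G52050, AT1G52060, AT5G16230 and AT2G43870). That left 72 members, of which 37 have 1 gene in the annotation used (36 different genes), 1 has several and 34 have none and are unnamed here. Without the condition on VND6, 441 probe sets qualified.

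Arrays came from 6 groups of 3: SND1 cells at 12 h and at 0 h (SND1_12h, SND1_0h), VND6 cells at 12 h and at 0 h (VND6_12h, VND6_0h), and wt cells at 12 h and at 0 h (wt_12h, wt_0h). SND1 and VND6 cells carry the named factor under estrogen control, wt cells carry neither, and all were sampled around the addition of 2 µM estrogen. No group was kept for 12 h without estrogen, so a change with time holds the effects of estrogen and of culture as well as that of a factor. The labels do not say how many independent transformed lines were used or whether replicates were separate cultures, so the p-values given here cover the spread among these arrays and nothing more, and that spread may be technical.

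SND1 and VND6 are NAC transcription factors that switch on secondary wall formation, the deposition of cellulose, xylan and lignin inside the primary wall. SND1 is known for fibres, the supporting cells of stems. VND6 is known for the vessels of metaxylem, whose walls are patterned and whose cells die and empty themselves to conduct water.

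In SND1 cells at 12 h the members spanned a wide range of mean signal, from 101 to 12343.5 with a median of 272. Their median was 25.2 in SND1 cells at 0 h. It was 43.6 in VND6_12h, 26.4 in VND6_0h, 25.0 in wt_12h and 23.9 in wt_0h. The median ratio of SND1_12h to SND1_0h was 8.42 (3.17 to 617 over the members), to VND6_12h 6.38 (3.09 to 617) and to wt_12h 8.26 (3.06 to 613). These contrasts chose the members, so they are descriptions without a test, and ratios against a mean set to 20 are lower bounds. The denominator was under 20 for 13 members in VND6_12h, 23 in SND1_0h and 27 in wt_12h, and all 5 other groups were under 20 for 6 members. In 66 of the 72 members each of the 3 SND1_12h arrays lay above all 15 other arrays, a separation that the rule favours. The 6 exceptions were AT1G65570, AtS40-3, AT3G02640, AT1G66880 and 2 unnamed probe sets. The same separation held for 1.95% of all tested probe sets, a base that leaves out 4 of the members.

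**Figure D1:**
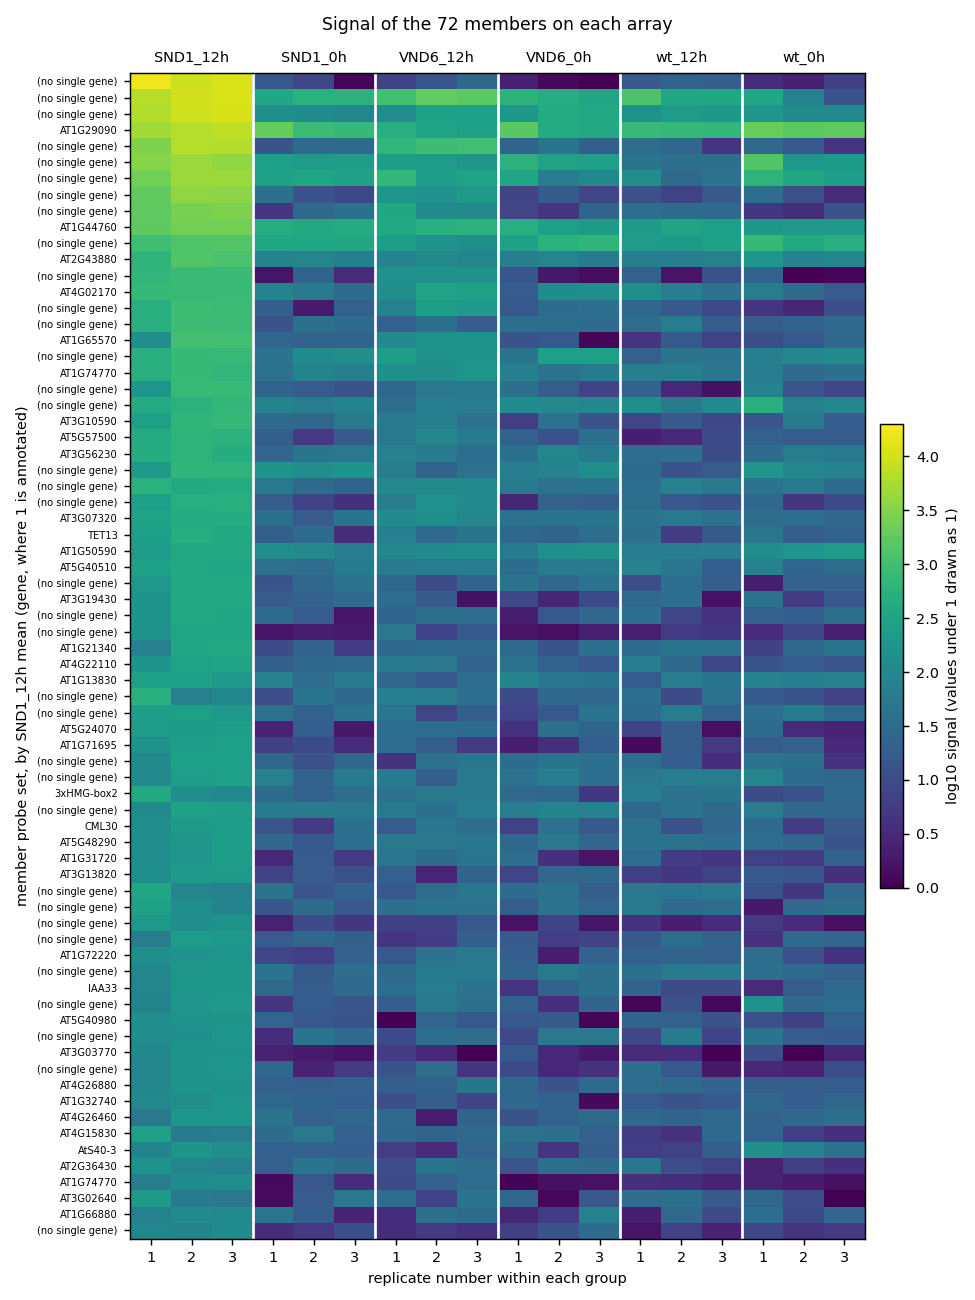
Signal of the 72 members (rows, labelled with the gene where 1 is annotated) on the 18 arrays (columns, by group and replicate), as log10 of the signal with values under 1 drawn as 1. The 3 SND1_12h columns lie above all 15 others in 66 rows, and AT1G65570 is an example of a row that is also raised in VND6_12h.

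**Figure D2:**
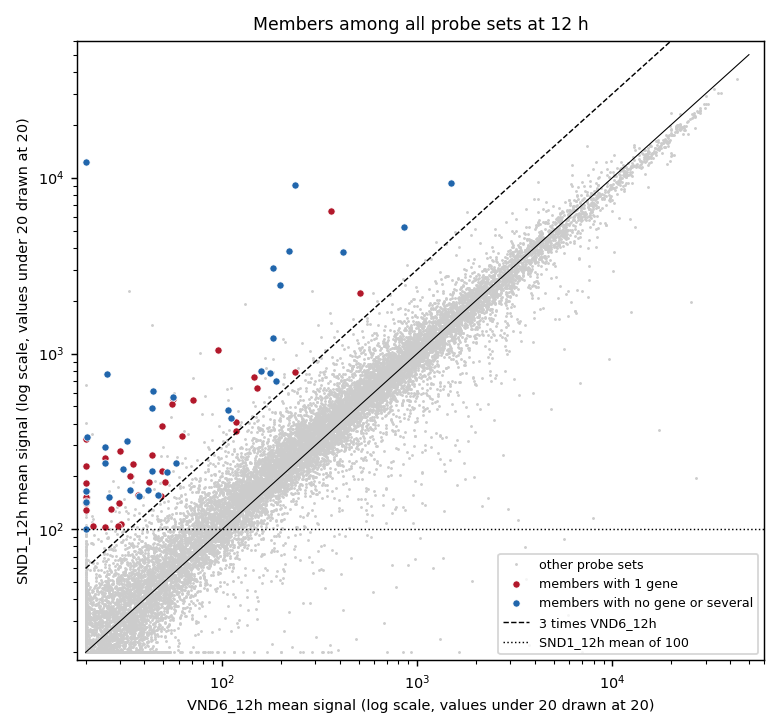
Mean signal in SND1_12h (vertical) against VND6_12h (horizontal) for all probe sets, both on log axes, with members in colour and the other probe sets in grey. The members lie above the line of 3 times and above a signal of 100, as the rule requires; grey points in that area failed another condition or were left out by name.

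Probe sets differ in brightness for reasons other than transcript number, so the signals below are compared between groups within a probe set and not between genes. Among the 37 members with 1 gene, 8 genes have annotated roles at the cell wall or outside the cell, 6 in protein turnover, 6 in signalling or membranes and 3 in DNA binding. Another 8 fall under metabolism and other roles and 5 have no stated role. These classes were assigned with the values known. Of the 123 genes on 10 lists of secondary wall regulators, NAC switches, cellulose, xylan, lignin, cell death, microtubules and cell type markers, 20 were named on the array and none of these was a member, IRX15 having been left out by name. For the other listed genes membership could not be checked, since the unnamed members may hold some of them.

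Of the wall genes, AT2G43880 encodes a protein of the polygalacturonase family, enzymes that cut pectin. It had signals of 634, 1347 and 1180 in SND1_12h, against 84.2, 91.0 and 71.6 in SND1_0h. The signals were 80.8, 109 and 95.1 in VND6_12h and 72.7, 89.7 and 57.9 in VND6_0h. In wt cells they were 73.0, 69.9 and 77.9 at 12 h and 183, 80.8 and 93.0 at 0 h. SND1_12h thus averaged 12.8 times SND1_0h and 11.1 times VND6_12h, and the arrays of the other 5 groups all lay between 57.9 and 183. Its neighbour AT2G43870, with no protein-coding gene between them, met the same rule and was left out by name.

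AT1G65570, another member of the polygalacturonase family, had 132, 1057 and 1028 in SND1_12h, against 25.3, 23.2 and 23.2 in SND1_0h. In VND6_12h it had 115, 161 and 162, against 12.7, 14.8 and 1.12 in VND6_0h. In wt_12h it had 4.55, 16.2 and 7.07 and in wt_0h 10.8, 15.5 and 26.3. It was therefore raised in both transformed lines at 12 h, and SND1_12h replicate 1 lay within the VND6_12h range while replicates 2 and 3 were far above it.

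AT5G57500 belongs to the galactosyltransferase family, enzymes that build cell surface sugar chains. Its signals were 441, 620 and 575 in SND1_12h, against 19.6, 5.48 and 16.5 in SND1_0h. They were 52.4, 99.4 and 61.2 in VND6_12h, against 21.8, 12.1 and 37.8 in VND6_0h. They were 2.28, 3.11 and 9.77 in wt_12h, against 21.4, 17.9 and 18.2 in wt_0h. The SND1_12h arrays were 7.68 times VND6_12h on average and at least 27.3 times SND1_0h, and wt_12h had the lowest mean. IAA33, a member of the Aux/IAA family of auxin signalling, is also a member. It lies on the same chromosome, with 5 protein-coding genes between it and AT5G57500.

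AT3G07320, of the family of beta-1,3-glucanases that cut callose, had 311, 449 and 457 in SND1_12h, against 39.1, 16.9 and 47.8 in SND1_0h. It had 118, 137 and 98.7 in VND6_12h, against 40.8, 44.7 and 47.6 in VND6_0h. In wt cells it had 45.8, 53.1 and 40.1 at 12 h and 34.4, 34.0 and 28.5 at 0 h. The VND6_12h arrays stood apart from the low groups, at 29.1% of the SND1_12h mean.

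AT1G71695, a class III peroxidase of the secreted kind that can oxidise lignin precursors, had 158, 255 and 272 in SND1_12h. Every other array was at 34.0 or below: VND6_12h had 34.0, 18.2 and 5.39, SND1_0h 6.59, 9.15 and 3.25 and wt_12h 1.29, 18.9 and 5.41. All 5 other group means were under 20, so SND1_12h was at least 11.4 times each of them. A second peroxidase, AT5G24070, averaged 235 ± 18.3 in SND1_12h, against 8.12 ± 9.98 in SND1_0h, 35.0 ± 1.61 in VND6_12h and 9.44 ± 9.18 in wt_12h (SD, n = 3 each).

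AT1G13830 carries a carbohydrate-binding domain of the X8 kind. It had 274, 283 and 211 in SND1_12h, against 75.5, 34.9 and 52.0 in SND1_0h. It had 26.4, 15 and 34.0 in VND6_12h, against 82.4, 49.2 and 46.2 in VND6_0h, and 17.5, 64.5 and 47.1 in wt_12h, against 80.9, 70.1 and 75.8 in wt_0h. VND6_12h had the lowest mean here, and its arrays did not overlap those of VND6_0h. AT1G31720, of a family named for modifying wall lignin, had 128, 175 and 253 in SND1_12h and 3.08, 17.1 and 5.38 in SND1_0h. It had 49.0, 32.6 and 45.2 in VND6_12h, against 33.8, 3.84 and 1.73 in VND6_0h. The VND6_0h value of replicate 1 lay within the range of the VND6_12h values, so the arrays of the 2 times overlapped.

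Of the protein turnover genes, AT1G29090 encodes a papain-type cysteine protease. It had 5062, 6533 and 7659 in SND1_12h, against 1889, 874 and 747 in SND1_0h. It had 495, 328 and 268 in VND6_12h, against 1556, 449 and 407 in VND6_0h, and 802, 738 and 701 in wt_12h, against 2018, 1674 and 1750 in wt_0h. The gene was thus well above the floor in every group, and SND1_12h was 5.48 times SND1_0h and 17.7 times VND6_12h. No other member with 1 gene had so large a ratio to VND6_12h.

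AT1G74770 encodes a hemerythrin and zinc-finger ubiquitin ligase of the BRUTUS-like kind, known in iron regulation, and is the only gene with 2 member probe sets. The brighter one had 507, 746 and 669 in SND1_12h, against 41.4, 86.0 and 68.8 in SND1_0h. It had 142, 139 and 175 in VND6_12h, against 71.6, 40.4 and 57.1 in VND6_0h, and 68.7, 68.1 and 49.6 in wt_12h, against 65.8, 29.2 and 37.6 in wt_0h. SND1_12h stood 9.80 times above SND1_0h and VND6_12h 2.69 times above VND6_0h. The second probe set averaged 105 ± 35.9 in SND1_12h, 6.54 ± 7.25 in SND1_0h, 21.9 ± 12.6 in VND6_12h and 3.41 ± 0.732 in wt_12h, the same order of SND1_12h, then VND6_12h, then the rest.

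AT3G56230, of the BTB/POZ family that brings substrates to a ubiquitin ligase, had 457, 615 and 468 in SND1_12h, against 25.1, 47.2 and 50.7 in SND1_0h. It had 73.3, 57.7 and 35.7 in VND6_12h, against 37.8, 94.8 and 56.0 in VND6_0h, so the VND6 arrays of both times overlapped. Of the other turnover genes, the F-box gene AT3G13820 and the RING-type genes AT1G72220 and AT1G32740 had SND1_12h means of 184 ± 41.3, 158 ± 21.2 and 141 ± 40.2. Their VND6_12h means were 15.9 ± 11.4, 37.2 ± 20 and 12.5 ± 5.69.

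Of the DNA-binding genes, AT3G10590 encodes a homeodomain-like protein of the MYB type. It had 274, 653 and 732 in SND1_12h, against 31.1, 26.3 and 52.3 in SND1_0h. It had 58.3, 69.2 and 41.2 in VND6_12h, against 6.16, 41.1 and 12.5 in VND6_0h, and 7.93, 15.6 and 8.12 in wt_12h, against 13.6, 56.8 and 19.5 in wt_0h. The SND1_12h mean was 9.84 times that of VND6_12h, and the VND6_12h arrays only just cleared those of VND6_0h. AT1G21340, a Dof zinc-finger factor, had 73.3, 360 and 403 in SND1_12h, against 9.43, 22.6 and 5.76 in SND1_0h, with 28.3, 31.8 and 30.2 in VND6_12h and 32.3, 46.3 and 41.1 in wt_12h. Replicate 1 was far below the other two in SND1_12h but still above every other array. 3xHMG-box2, an HMG-box protein that binds chromosomes in mitosis, had 396, 138 and 108 in SND1_12h, against 33.0, 21.5 and 34.7 in SND1_0h. Here replicate 1 was the high array. The signals were 40.4, 51.8 and 56.5 in VND6_12h and 67.2, 42.0 and 47.8 in wt_12h.

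The signalling and membrane genes had SND1_12h means from 103 to 387. TET13, a tetraspanin of the plasma membrane, had 270, 477 and 415 in SND1_12h, against 20, 31.5 and 3.63 in SND1_0h, with 70.8, 30 and 46.4 in VND6_12h and 36.8, 5.67 and 16.4 in wt_12h. CML30, a calmodulin-like calcium sensor, had 136, 216 and 251 in SND1_12h, against 13.7, 5.52 and 37.6 in SND1_0h, with 17.0, 48.4 and 36.0 in VND6_12h. Neither overlapped between SND1_12h and the other groups named. AT3G03770, of the leucine-rich repeat kinase family, averaged 145 ± 38.0 in SND1_12h, against 2.05 ± 0.427 in SND1_0h, 3.17 ± 2.29 in VND6_12h and 2.55 ± 1.44 in wt_12h (SD, n = 3 each). All of its other group means were under 20. IAA33 had 90.1, 188 and 187 in SND1_12h, against 30.4, 18.8 and 30.6 in SND1_0h, with 36.4, 65.1 and 44.0 in VND6_12h.

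Of the remaining genes, AT1G44760, annotated as like adenine nucleotide alpha hydrolases, had 1703, 2407 and 2490 in SND1_12h, against 483, 413 and 439 in SND1_0h. It had 412, 537 and 579 in VND6_12h, against 522, 263 and 216 in VND6_0h, and 210, 326 and 265 in wt_12h, against 186, 202 and 206 in wt_0h. It was clearly measured in all groups, and SND1_0h already lay above both wt groups. AT4G02170, which has no stated role, had 772, 777 and 818 in SND1_12h, against 83.7, 58.3 and 33.3 in SND1_0h. It had 126, 296 and 292 in VND6_12h, against 18, 126 and 131 in VND6_0h, and 136, 67.9 and 40.3 in wt_12h, against 63.4, 32.4 and 17.1 in wt_0h. SND1_12h was tight and far above the rest, and VND6_12h overlapped both VND6_0h and wt_12h. AT3G19430, also without a stated role, had 168, 401 and 405 in SND1_12h, against 16.9, 22.6 and 31.3 in SND1_0h and 35.2, 16.8 and 1.56 in VND6_12h. Its VND6_12h values were no higher than those of wt_12h, at 30.4, 37.1 and 1.64.

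AtS40-3, a gene linked to leaf senescence, had 87.3, 166 and 135 in SND1_12h, against 21.7, 22.6 and 19.2 in SND1_0h. It had 5.96, 3.42 and 25.4 in VND6_12h, against 27.2, 4.49 and 20.2 in VND6_0h, and 6.16, 7.11 and 18.2 in wt_12h, against 147, 81.4 and 40.2 in wt_0h. SND1_12h and wt_0h overlapped and stood above the rest. AT1G50590, of the pirin family, had 239, 417 and 432 in SND1_12h, against 141, 104 and 66.3 in SND1_0h. It had 96.5, 118 and 137 in VND6_12h, against 60.1, 147 and 153 in VND6_0h, and 66.9, 66.6 and 69.3 in wt_12h, against 133, 181 and 229 in wt_0h. At 3.09 times VND6_12h it is the member closest to the VND6 threshold.

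The unnamed probe sets had SND1_12h means from 101 to 12343.5. One of them had 6269, 9791 and 11055.8 in SND1_12h, against 142, 124 and 94.7 in SND1_0h, and 127, 292 and 285 in VND6_12h, against 187, 436 and 393 in VND6_0h. Its SND1_12h mean was 38.4 times that of VND6_12h. Another had 2895, 6541 and 6300 in SND1_12h, against 13.0, 30.1 and 30 in SND1_0h, and 677, 912 and 979 in VND6_12h, against 24.1, 45.4 and 19.2 in VND6_0h. It was raised in both lines at 12 h, and more in SND1 cells. Both were picked after their values were seen.

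**Figure D3:**
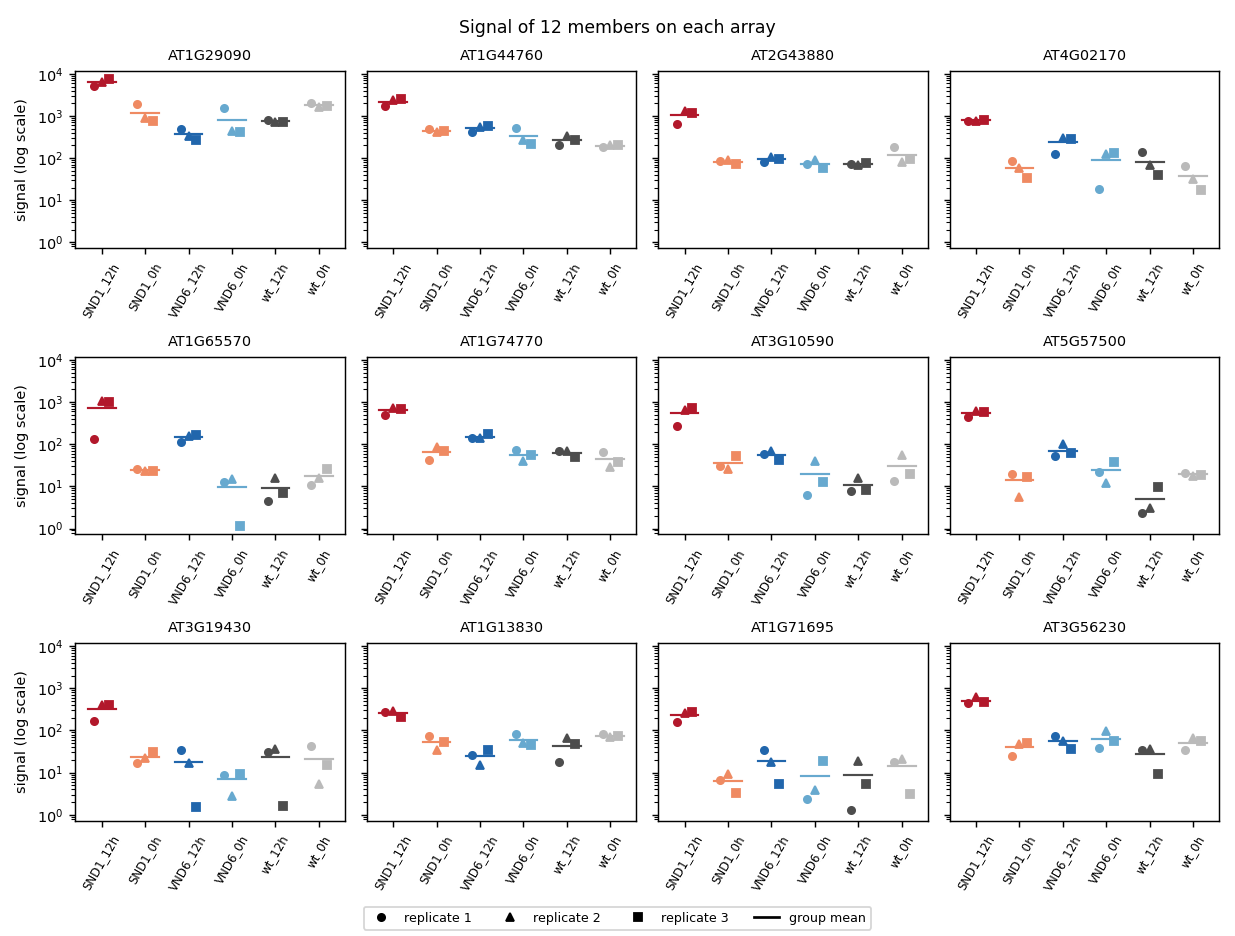
Signal on each array (points, log axis, 1 symbol for each replicate) and group mean (line) of 12 members with 1 gene, with the 6 groups in the order SND1_12h, SND1_0h, VND6_12h, VND6_0h, wt_12h, wt_0h. SND1_12h is the highest group in each panel, and AT1G65570 shows 1 SND1_12h array at 132 beside 1057 and 1028.

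The members just inside and just outside the rule are close in signal. AT1G66880, of the protein kinase family, had an SND1_12h mean of 103 and AT3G12870, outside, 96.0. AT2G36430, a member, stood 3.24 times above SND1_0h, and AT3G28530, outside, 2.90 times. An unnamed member stood 3.06 times above wt_12h and AT2G32430, outside, 2.83 times. IAA33 stood 3.19 times above VND6_12h, while AT4G01730, outside, missed that threshold by less than the rounding of these ratios.

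The SND1_12h replicates differed, and this touches the membership. Replicate 1 was the lowest of the 3 arrays in 58 members (80.6%), against 46.7% of the 12285 probe sets with an SND1_12h mean of at least 100. The ratio of replicate 1 to the mean of replicates 2 and 3 had a median of 0.605 over the members and 0.968 over those probe sets. Over all probe sets Spearman's rho was 0.963 to 0.973 between replicates 2 and 3 of a group and 0.910 to 0.958 for pairs with replicate 1. The rule was met on replicate 1 arrays alone by 48 members, on replicate 2 by 61, on replicate 3 by 64 and on each of them by 39.

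In 6 members replicate 1 was instead over 2 times the mean of the other two. Those with 1 gene were 3xHMG-box2, AT4G15830, of the ARM repeat family, with 267, 58.2 and 64.6 in replicates 1, 2 and 3, and AT3G02640, with no stated role and 208, 56.3 and 50. Without SND1_12h replicate 1 the rule lost 7 members, these 6 and AT2G36430, and gained 10 probe sets. Of the dividing cell markers, 3 of 6 were measured. AUR1, an Aurora kinase of mitosis, had 461, 136 and 204 in SND1_12h replicates 1, 2 and 3, and AUR2 121, 67.6 and 94.1. MCM7, of the replicative helicase, had 572, 514 and 543. The sum of the 3 markers ranged from 717 to 1155 in SND1_12h, from 321 to 440 in SND1_0h, from 919 to 1122 in VND6_12h, from 224 to 466 in VND6_0h, from 952 to 1425 in wt_12h and from 107 to 138 in wt_0h. Their part in the signals of 3xHMG-box2 and the other 5 was not tested. Fewer cells of a kind and less RNA per cell cannot be told apart in such bulk samples.

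**Figure D4:**
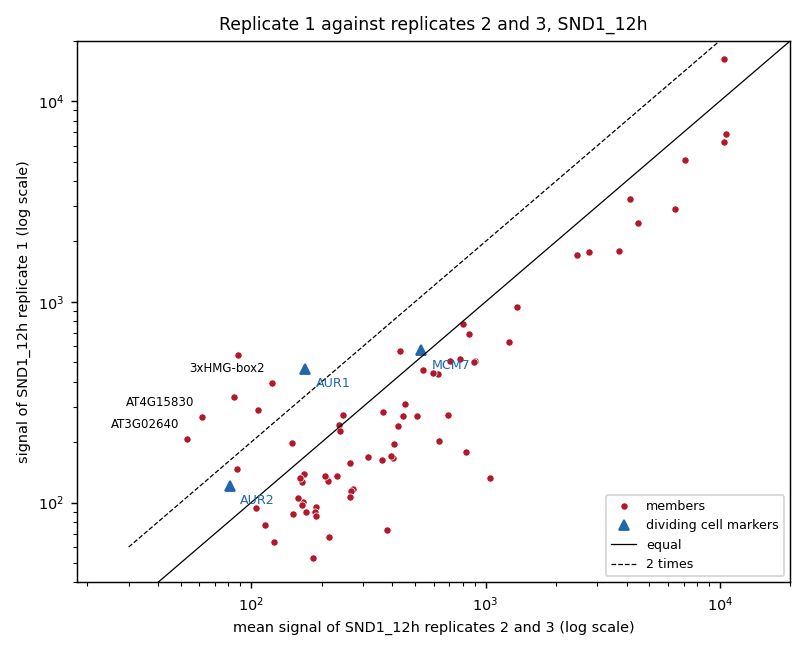
SND1_12h replicate 1 (vertical) against the mean of replicates 2 and 3 (horizontal) for each member and the measured dividing cell markers, on log axes. Of the 72 members, 6 lie above the dashed line of 2 times, as does AUR1, while AUR2 and MCM7 lie below it, and 58 have replicate 1 as their lowest array.

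The next comparisons are not among those of the rule, but most use arrays that it used. VND6_12h, wt_12h and SND1_0h entered it as ceilings, which hold rises of these groups down and favour falls. The shares of members called are therefore given as descriptions beside those of all tested probe sets, and no excess or deficit is read from them. A ceiling also favours single members that fell in VND6_12h or wt_12h, or that stood above wt_12h. Their p-values are descriptions too. After a filter on dim signals 68 of the 72 members were tested with limma over 15715 probe sets. The 4 not tested were AT4G15830, AT4G26460, AT3G02640 and the dimmer probe set of AT1G74770. Members could pass that filter through SND1_12h, so the tested members are not an unselected set. The p-values of members that rose are descriptions for that reason as well. Between VND6_12h and VND6_0h 18 of the 68 were higher (26.5%), against 28.8% of all tested probe sets, and 2 were lower (2.94%), against 24.7%. The median log2 difference was 0.58 for the members and 0.08 for all.

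Against wt cells at 12 h, 18 members were higher in VND6_12h (26.5%), where the share over all tested probe sets was 11%. None was lower by limma, against 16% of all, and 1 was lower at an unadjusted p under 0.05. The median log2 difference between VND6_12h and wt_12h was 0.62 for the members and -0.21 for all. Both groups are ceilings of the rule here, so these shares do not show that the members stand apart, and the comparison shares VND6_12h with the one before. The VND6_12h mean was a median of 14.9% of the SND1_12h mean (0.130% to 32.4%), and over 10% of it in 48 members.

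**Figure D5:**
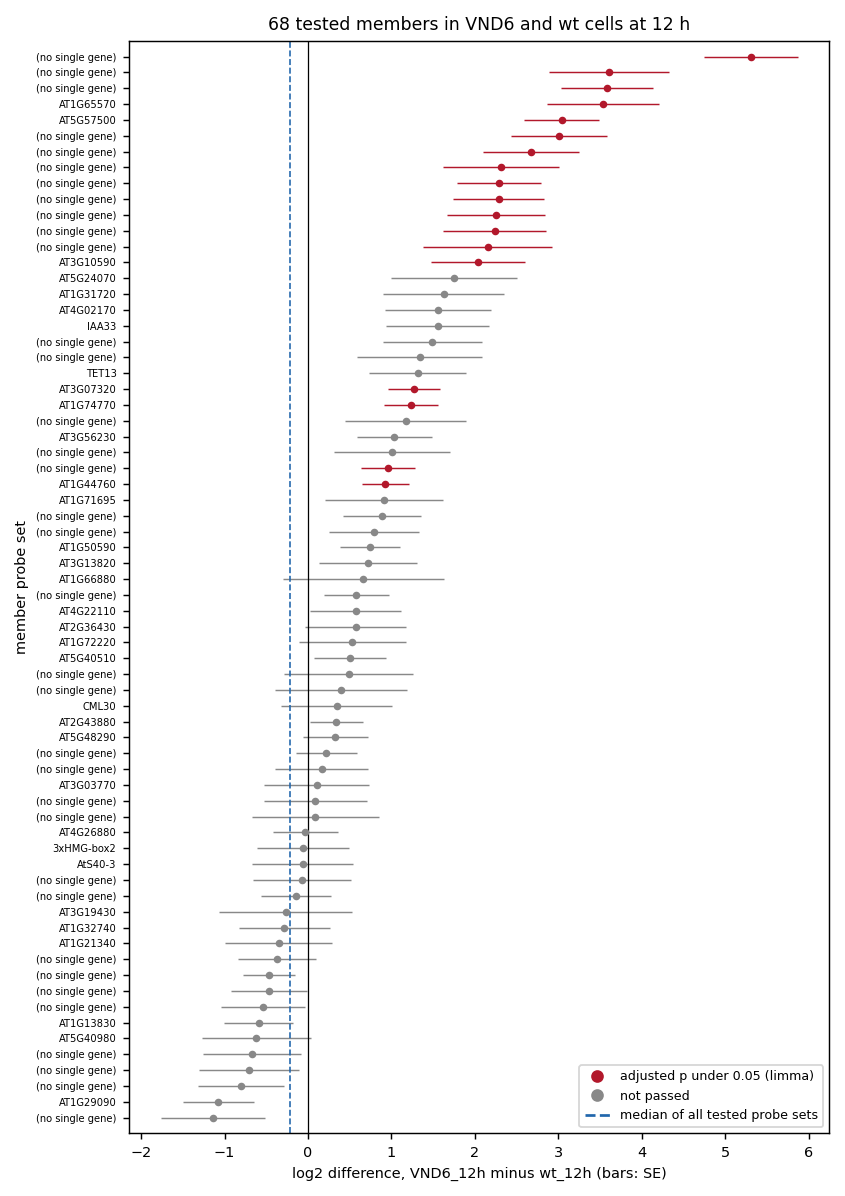
Log2 difference of VND6_12h and wt_12h for the 68 tested members (points, bars show the standard error), labelled with the gene where 1 is annotated, with red points for the 18 that passed at an adjusted p under 0.05. The dashed line is the median of all tested probe sets, -0.21, and the 18 all lie to the right of 0.

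AT1G65570 had the largest difference among these members with 1 gene. It was higher in VND6_12h than in VND6_0h by 3.62 on the log2 scale (SE 0.67, limma adjusted p = 0.000276) and higher than in wt_12h by 3.54 (SE 0.67, adjusted p = 0.00123). AT5G57500 was higher by 3.04 against wt_12h (SE 0.45, adjusted p = 0.000163) and by 1.47 against VND6_0h (SE 0.45, adjusted p = 0.0116). The wt_12h means, 9.29 for AT1G65570 and 5.05 for AT5G57500, were under the floor of 20, where values are noisy. Both calls of AT1G65570 and that of AT5G57500 against wt_12h held in every alternative run. That of AT5G57500 against VND6_0h was lost without VND6_12h replicate 2 (adjusted p = 0.0593), without VND6_0h replicate 2 (0.0643) and with replicates 2 and 3 averaged (0.057).

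AT1G74770 and AT3G07320 rose with time in VND6 cells by 1.39 (adjusted p = 0.00183) and 1.32 (adjusted p = 0.00207), and passed in every alternative run. Against wt_12h they stood higher by 1.24 (adjusted p = 0.0104) and 1.27 (adjusted p = 0.00737). The first of these was lost without wt_12h replicate 3 (adjusted p = 0.0522), and both with replicates 2 and 3 averaged (0.193 and 0.0965). These are the ubiquitin ligase and the glucanase family members.

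AT3G10590 was higher in VND6_12h by 1.57 against VND6_0h (SE 0.57, adjusted p = 0.028) and by 2.04 against wt_12h (SE 0.57, adjusted p = 0.0148). The first was lost without VND6_12h replicate 1 or 2 or VND6_0h replicate 1 or 3 (adjusted p up to 0.126), and the second without VND6_12h replicate 2 (0.0637) or wt_12h replicate 3 (0.0547). AT1G44760 was higher by 0.69 against VND6_0h (adjusted p = 0.0456, 0.052 with the replicate number as a block) and by 0.93 against wt_12h (adjusted p = 0.0218). The first was lost without VND6_12h replicate 2 or 3 or VND6_0h replicate 2 or 3, where the value fell to 0.44 at the lowest (adjusted p up to 0.223). The second was lost without any of VND6_12h replicates 2 and 3 and wt_12h replicates 1 and 3 (up to 0.0897).

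AT1G31720 (1.90, SE 0.72, adjusted p = 0.0366) and AT4G02170 (1.63, SE 0.63, adjusted p = 0.0399) were higher in VND6_12h than in VND6_0h and did not pass against wt_12h (1.63 and 1.56). In both genes the VND6_12h and VND6_0h arrays overlapped, and these p-values are descriptions. Outside SND1_12h the highest array of AT1G31720 was at 49.0. AT1G31720 was lost without any 1 VND6_12h array or VND6_0h replicate 2 or 3 (adjusted p up to 0.156). AT4G02170 was lost without VND6_12h replicate 2 or 3, and without VND6_0h replicate 1 its value was 0.77 (adjusted p = 0.238). AT1G13830 was lower by 1.12 in VND6_12h than in VND6_0h (log2 -1.12, SE 0.41, adjusted p = 0.0305), which was lost without VND6_12h replicate 2 (0.131) or VND6_0h replicate 1 (0.114). VND6_12h is a ceiling of the rule, which favours this fall, so its p-value is a description. The unnamed probe set raised in both lines was higher by 4.72 against VND6_0h and by 5.31 against wt_12h.

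Wt cells carry no transgene. Between wt_12h and wt_0h 5 of 68 were higher (7.35%) and 9 lower (13.2%), against 32.1% and 22% of all tested probe sets. The rule sets a ceiling on wt_12h, and the members were dim in both wt groups, with median signals of 25.0 in wt_12h and 23.9 in wt_0h, so a low share of rises follows in part from their choice. The median log2 difference was 0.00 for the members and 0.20 for all, a median that came to 0.08 for all after quantile normalization. Of the named members, 3xHMG-box2 rose by 1.46 (adjusted p = 0.0331), a call lost without wt_12h replicate 1 or 3 or wt_0h replicate 1 or 2 (up to 0.103) and after quantile normalization (0.0628). AtS40-3 fell by 2.58 (adjusted p = 0.00189) and AT1G50590 by 1.33 (adjusted p = 0.00502). AT5G57500 fell by 1.41 (adjusted p = 0.0146, but 0.0541 without wt_12h replicate 1) and AT1G29090 by 1.27 (adjusted p = 0.0186, but 0.0508 without wt_12h replicate 3). For AT5G57500 both wt means were under the floor of 20, at 19.2 in wt_0h and 5.05 in wt_12h. The ceiling on wt_12h favours these falls, so their p-values are drawn in part from values that chose the members and are descriptions. Both time contrasts called 2 members higher and 1 lower. The matching overlap over all tested probe sets was not counted and the ceilings act on both contrasts, so nothing is read from these counts.

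The change over time was larger in VND6 than in wt cells for 9 of the 68 (13.2%), against 5.84% of all tested probe sets, and smaller for 0, against 7.99%, by the limma interaction of line and time. This difference contains both ceilings, VND6_12h and wt_12h.

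Before induction few members were called. The members were dim at 0 h, with median signals of 25.2 in SND1_0h, 26.4 in VND6_0h and 23.9 in wt_0h. Over all probe sets the medians were 131, 120 and 119. SND1_0h is also a ceiling of the rule, so no likeness to the array as a whole is read from these shares. Between SND1_0h and wt_0h 1 of 68 was higher (1.47%), against 1.88% of all tested, and 0 were lower by limma, against 0.465%. At an unadjusted p under 0.05, 3 members were lower, and the matching share over all was not counted. The member called higher was AT1G44760, by 1.15 (SE 0.28, adjusted p = 0.0422), a call that was lost without any 1 of the 6 arrays (adjusted p from 0.0514 to 0.137). Between VND6_0h and wt_0h, the only comparison of which neither group entered the rule, 2 were higher (2.94%), against 4.8% of all, and 2 lower (2.94%), against 3.72%. The lower ones were AtS40-3 (log2 -2.13, adjusted p = 0.0405) and AT1G29090 (log2 -1.45, adjusted p = 0.0448). AtS40-3 was lost without VND6_0h replicate 2 or 3 or wt_0h replicate 1 or 2 (up to 0.181). AT1G29090 was lost without VND6_0h replicate 2 or 3 or any 1 wt_0h array (up to 0.185).

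By plain ratios of group means, 7 of the 72 members (9.72%) reached 3 times both VND6_0h and wt_12h in VND6_12h, and AT1G65570 was the only one with 1 gene. With the roles of the factors exchanged, 117 probe sets met the rule for VND6, and 36 of them (30.8%) reached 3 times both SND1_0h and wt_12h in SND1_12h. These shares follow from thresholds on the same arrays and were not tested. The matching shares over all probe sets were not counted, and the exchanged set had no genes left out by name. No difference between the factors is read from them.

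The known secondary wall genes give a setting for the members. Of the 123 listed genes 20 were named on the array, and all 20 were tested, in comparisons added after the data were seen. In SND1_12h against wt_12h, where 8.91% of all tested probe sets were higher, the higher ones were C3H14, the 1 regulator, 3 of 4 xylan genes, 1 of 3 lignin genes, 3 of 7 cell death genes, the microtubule gene KIN13A and 2 of 3 dividing cell markers. None was lower by limma at an adjusted p under 0.05, against 3.86% of all tested, and MCM7 stood at -0.90 (adjusted p = 0.0603). The photosynthesis marker RCA did not pass (0.21), and its signal was 40.8 to 54.9 in SND1_12h and 32.9 to 50.4 in wt_12h. AUR1 (1.88, adjusted p = 0.0239) and AUR2 (1.61, adjusted p = 0.0279) were both lost without SND1_12h replicate 1 (0.116 and 0.106), without SND1_12h replicate 3 and without wt_12h replicate 3, and with replicates 2 and 3 averaged (0.224 and 0.203). AUR1 was also lost without wt_12h replicate 2 (0.117) and with only the arrays compared (0.0516). HCT was lost without SND1_12h replicate 2 or 3 or wt_12h replicate 1 (up to 0.0857) and with replicates 2 and 3 averaged (0.283). C3H14, PASPA3 and KIN13A were each lost in 1 alternative run (limma adjusted p = 0.185, 0.12 and 0.0993).

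Set against VND6 directly, most of these genes did not pass. In SND1_12h against VND6_12h, where 1.78% of all tested probe sets were higher and 1.04% lower, IRX15, which acts in xylan deposition, was higher by 3.35 (SE 0.42, adjusted p = 0.000201). It is one of the genes left out of the members by name. HCT, a hydroxycinnamoyl transferase of the lignin pathway, was higher by 1.63 (SE 0.29, adjusted p = 0.00432), with 682, 1091 and 998 in SND1_12h and 233, 318 and 329 in VND6_12h. This call was lost in 1 of 15 alternative runs (limma adjusted p = 0.303). The lignin peroxidases PRX72 (log2 -7.93, adjusted p = 6.7e-07) and PRX66 (log2 -2.16, adjusted p = 0.0156) were lower in SND1_12h. PRX66 was lost in 4 of 15 alternative runs (limma adjusted p up to 0.296). Among them were those without SND1_12h replicate 1 (adjusted p = 0.0798) or VND6_12h replicate 2 or 3 (0.077 and 0.0644). The other 16 did not pass, among them the cell death genes SCPL48 (-0.63), DMP4 (0.44) and PASPA3 (0.67) and the microtubule gene KIN13A (0.01).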

How the data were processed

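Total RNA of 18 samples was labelled as biotinylated cRNA and hybridised to ATH1 arrays. The authors deposited linear intensity values, 1 for each probe set on each array. Per the submitters' processing notes they came from GCOS, whose version is not given in the sources used here. On each array a 2% trimmed mean of 500.045 to 500.058 was found, so the table was used as given; such scaling assumes that most transcripts do not move, and values near the floor are noisy. The labels name 2 labelling kits without tying them to arrays. No 2 arrays were identical.

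The members and lists were chosen with earlier results of these data known. Named members were those with 1 gene that had the 8 highest SND1_12h means or the 8 largest ratios to VND6_12h, lay next to a threshold or were called. TET13, CML30, AT3G03770, AT5G24070, AT3G13820, AT1G72220, AT1G32740, AT4G15830 and AT3G02640 were named outside this rule, after their values were seen, as examples of their class or of replicate 1. GEO's annotation gave 1 gene for 13513 probe sets, several for 503 and none for 8730; 13436 of the first kind, and all 37 such members, matched RefSeq (TAIR10.1), used for names and neighbours only.

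Differences were fitted on log2(intensity + 4.32), 4.32 being the table's 10th percentile, with limma 3.58.1 in R 4.3.3 (lmFit, eBayes with an intensity trend) over group means of all 18 arrays. Probe sets reaching the 40th percentile of their array on at least 3 arrays, controls left out, were tested (15715), with 2-sided p-values adjusted by Benjamini-Hochberg within a comparison and called under 0.05. The pipeline was tested on simulated data. The pseudocount understates the fold of dim probe sets, and 3 arrays per group limit the precision.

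Deviations from group means correlated between same-numbered arrays by 0.205 to 0.308 in VND6 cells over time and 0.255 to 0.380 in wt cells. Between SND1_0h and wt_0h they correlated by 0.304 to 0.486. All lay above the bound of 0.1 set for pairing by number. The main fits used no pairing all the same, so the p-values given are unpaired. The replicate number entered as a block in an alternative run. Arrays of different numbers reached 0.196, 0.290 and 0.338, so the numbers mainly set replicate 1 apart from replicates 2 and 3. Same-numbered arrays did not all reach the bound for VND6_12h and wt_12h (0.0918 to 0.172) or VND6_0h and wt_0h (0.0230 to 0.186). Alternatives were quantile normalization, other filters, a pseudocount 4 times larger, no intensity trend, the replicate block, only the arrays compared, each array left out and other thresholds of the rule. Added after seeing the data were replicates 2 and 3 only, these averaged and counted as 1, the comparisons of listed genes and the difference between the VND6 and wt responses.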

Additional observations from a re-analysis of the deposited data

Results flagged for a closer look

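The change over 12 h differed between VND6 and wt cells for 9 tested members, all with the larger response in VND6 cells (13.2%, against 5.84% of all tested probe sets). In the other direction limma called 0 members, against 7.99% of all tested, at an adjusted p under 0.05. At an unadjusted p under 0.05 it was also 0 members, and the matching share over all was not counted. The test was the interaction of line and time. VND6_12h and wt_12h are ceilings of the rule, so nothing about the members as a set is read from this split. In single genes too the ceiling on wt_12h favours a larger VND6 response, so the p-values below are descriptions. Of the 9, 3 have 1 gene. AT1G65570, of the polygalacturonase family, had a response 4.33 larger in VND6 cells on the log2 scale (SE 0.95, adjusted p = 0.00773), with changes of 3.62 in VND6 cells and -0.72 in wt cells. AT5G57500, of the galactosyltransferase family, had one 2.88 larger (SE 0.64, adjusted p = 0.00811), with changes of 1.47 and -1.41. In wt cells the means of both genes were under the floor of 20 at both times, so their wt changes rest on noisy values. Both calls were lost with replicates 2 and 3 averaged (adjusted p = 0.193 and 0.111). AT3G10590, the MYB-type gene, had one 2.61 larger (SE 0.80, adjusted p = 0.0412), with changes of 1.57 in VND6 cells and -1.03 in wt cells. Its call was lost without VND6_12h replicate 2 or 3, VND6_0h replicate 1 or 3, any 1 wt_12h array or wt_0h replicate 2 or 3 (adjusted p up to 0.102). Further settings that ended it were no filter (0.0566), the filter at the 60th percentile (0.0531), the larger pseudocount (0.0596), a fit of the compared arrays alone (0.101) and the averaging of replicates 2 and 3 (0.261).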

How the results depend on the processing

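The number of members was 137 with a fold threshold of 2 and from 67 to 77 without 1 array. For the fits, none of the calls of named members or listed genes changed its direction in any alternative run. In VND6_12h against VND6_0h, without 1 array 13 to 17 members were higher and 1 to 4 lower. The count of lower members was 1 with the filter at the 60th percentile or fitting only the arrays compared, and 7 when replicate 1 was dropped throughout. Averaging replicates 2 and 3 gave 9 higher and 0 lower. In VND6_12h against wt_12h, without 1 array 11 (without wt_12h replicate 3) to 19 were higher and 0 to 1 lower. The replicate block gave 1 lower, as did fitting only the arrays compared. Replicates 2 and 3 without replicate 1 gave 28 higher and 3 lower, and averaging them gave 4 higher. In wt_12h against wt_0h, 2 (without wt_0h replicate 2) to 5 were higher and 8 to 10 lower without 1 array. The higher count was 3 without wt_12h replicate 1, 3 with the 60th percentile filter, 9 when replicate 1 was dropped throughout and 0 when the other two were averaged. In SND1_0h against wt_0h the higher count was 0 after quantile normalization, without a filter, without an intensity trend, from the compared arrays alone and after averaging replicates 2 and 3. It was 0 to 1 without 1 array, and replicates 2 and 3 only gave 6 higher and 2 lower. In VND6_0h against wt_0h, quantile normalization, no filter and no intensity trend each gave 0 higher and 1 lower. The 60th percentile filter gave 1 lower, only the arrays compared 0 and 0, replicates 2 and 3 only 11 higher and 4 lower, and these averaged 0 and 0. Without 1 array it was 0 to 5 higher and 0 to 3 lower. Where the cause of such a shift is not the number of arrays or probe sets itself, it was not tested. The replicate block ended 1 named call (AT1G44760 in VND6 cells over time) and no other. With replicates 2 and 3 averaged, the calls of named members that passed in the 5 main comparisons were those of AT1G65570, AT1G74770 and AT3G07320 in VND6 cells over time, AT1G65570 and AT5G57500 against wt_12h, and AtS40-3 and AT5G57500 in wt cells. Fitting the compared arrays alone ended the VND6 time calls of AT1G31720, AT4G02170, AT3G10590, AT1G13830 and AT1G44760, the wt call of AT5G57500 and the 3 calls of named members at 0 h. Dim members are limited by the floor of the array: 25 of the 72 had an SND1_12h mean under 200.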
